A study of Mus musculus with 8 samples.

Results

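The circadian clock genes Arntl, Clock, Per1, Per2, Per3, Cry1, Cry2, Nr1d1, Nr1d2 and Dbp were followed by RNA sequencing in mouse osteoblast progenitors cultured with or without LAMZ. They were chosen by symbol, and all 10 were found among the 51822 gene symbols used. LAMZ (locamidazole) is an aminoindazole compound. The sample labels name the cells as MC3T3-E1, an osteoblastic cell line, whereas the study's methods name cultured calvarial cells. The 4 groups, of 2 libraries each, were cells with DMSO (control) or with 1 μmol/L LAMZ, harvested on day 7 or on day 14. All groups, controls included, grew in osteogenic medium with ascorbic acid, β-glycerophosphate and 10 nmol/L dexamethasone. Dexamethasone is a synthetic glucocorticoid, and glucocorticoids can reset the clocks of cultured cells. By the methods, LAMZ and medium were renewed every 3 days, the last time on day 6 or on day 12, so that culture day and time since the last renewal cannot be told apart. No hour of harvest is given, so the phase of the clock at harvest is unknown, and a level at a single time point cannot separate a different phase from a different mean level.

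The circadian clock is a loop of transcription that runs in nearly every cell of the body. The proteins of Arntl (also called Bmal1) and Clock form a dimer that binds E-boxes and activates the Per, Cry, Nr1d and Dbp genes. The PER and CRY proteins then block the dimer, while the nuclear receptors of Nr1d1 and Nr1d2 (REV-ERBα and REV-ERBβ) repress Arntl. Dbp is a transcription factor of the PAR bZIP family that binds D-boxes in output genes and in Per genes. In a running clock, the mRNA of Dbp, Nr1d1, Nr1d2 and Per3 peaks in a phase roughly opposite to that of Arntl. In bone, clock genes are known to act in osteoblasts, among others on proliferation and matrix genes.

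The letters of these elements were searched on both strands in the 250 bases before each annotated start in RefSeq (GRCm38.p6), where 9 of the 10 genes were found. Per2 is not analysed here. The E-box was spelled CACGTG, the noncanonical E-box CACGTT and the D-box TTATGCAA or TTATGTAA. These strings occurred in 6.02%, 3.85% and 1.5% of all 32851 promoters of that length. The cAMP response element TGACGTCA, found in 1.55% of them, was in no window of a clock gene. The windows of Per1 (first annotated start), Per3, Cry1 and Nr1d1 are shown, with the matches in capitals. They were picked from the windows that held a match, so they do not stand for all genes that moved at day 14.
Per1, chr11:69098699-69098948, plus strand: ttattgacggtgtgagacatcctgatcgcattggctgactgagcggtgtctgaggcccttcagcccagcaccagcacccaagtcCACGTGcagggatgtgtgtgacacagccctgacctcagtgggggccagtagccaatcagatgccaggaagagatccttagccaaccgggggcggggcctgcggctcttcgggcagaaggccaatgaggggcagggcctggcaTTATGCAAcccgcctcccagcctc
Per3, chr4:151044666-151044915, minus strand: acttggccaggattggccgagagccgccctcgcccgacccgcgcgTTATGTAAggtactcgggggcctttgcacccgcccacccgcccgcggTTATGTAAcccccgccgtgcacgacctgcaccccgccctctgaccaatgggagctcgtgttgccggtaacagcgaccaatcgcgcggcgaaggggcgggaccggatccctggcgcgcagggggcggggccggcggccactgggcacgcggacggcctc
Cry1, chr10:85185055-85185304, minus strand: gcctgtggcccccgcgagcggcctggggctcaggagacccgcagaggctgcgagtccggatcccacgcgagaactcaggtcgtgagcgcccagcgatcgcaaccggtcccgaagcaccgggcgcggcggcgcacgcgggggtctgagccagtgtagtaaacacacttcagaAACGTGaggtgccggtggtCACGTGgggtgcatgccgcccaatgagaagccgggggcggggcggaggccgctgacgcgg
Nr1d1, chr11:98775378-98775627, minus strand: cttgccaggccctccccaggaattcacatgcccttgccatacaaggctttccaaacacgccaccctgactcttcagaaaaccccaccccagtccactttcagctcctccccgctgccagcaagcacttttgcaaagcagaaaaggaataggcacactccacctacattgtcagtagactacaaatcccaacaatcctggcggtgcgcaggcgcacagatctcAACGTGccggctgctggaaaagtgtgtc
The Per1 window held an E-box from base -166 to -161 before the start and a D-box from -24 to -17. The Per3 window held D-boxes at -205 to -198 and at -158 to -151. In Cry1, a noncanonical E-box at -79 to -74 (read on the other strand) lay before an E-box at -60 to -55. Nr1d1 had a noncanonical E-box at -28 to -23 (on the other strand as well), and Cry2 had another at -166 to -161. No match was found in the windows of Clock, Nr1d2 and Dbp, whose genes were also lower with LAMZ at day 14. The window of the second annotated start of Per1 held none either. This says only that these letters are not in these windows. The REV-ERB and ROR response element was found from 26 to 36 bases past the second annotated start of Arntl, in a 300-base window, and 0.384% of all promoter windows of that length held it. It is shown because it is the element through which the Nr1d genes act on Arntl.
Arntl, chr7:113207528-113207557, plus strand: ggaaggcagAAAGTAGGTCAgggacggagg
These matches describe the sequence, and binding was not measured.

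The libraries held 3463538 to 5832101 mapped reads, a depth recovered from the RPKM values (reads relative to gene length and to all mapped reads). At this depth, a clock gene had between 17 and 370 reads in a library. The fewest were those of Arntl, with 17 to 49 reads, and of Per2, with 18 to 92 reads. Arntl was at or above an RPKM of 1 in 7 of 8 libraries, Per2 in 6 of 8 and the other genes in all 8, so that all 10 passed the filter on low values. Markers of the osteoblast (8 genes, among them Col1a1, Alpl and Runx2) were found in every library, at a summed RPKM of 7171 to 18120. The 14 macrophage markers (C1qa, Csf1r, Lyz2 and others) moved with the groups. Their summed RPKM was 479.9 to 630.5 in control at day 7 and 1202 to 1223 in control at day 14, but 7.65 to 9.27 and 7.25 to 7.99 in LAMZ, where C1qa, C1qb, C1qc, Tyrobp, Ctss and Laptm5 were at 0. Of these markers, 13 of 14 were lower with LAMZ at day 7 and 14 of 14 at day 14. In bulk RNA, fewer cells of a type and less RNA per cell cannot be told apart.

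**Figure D1:**
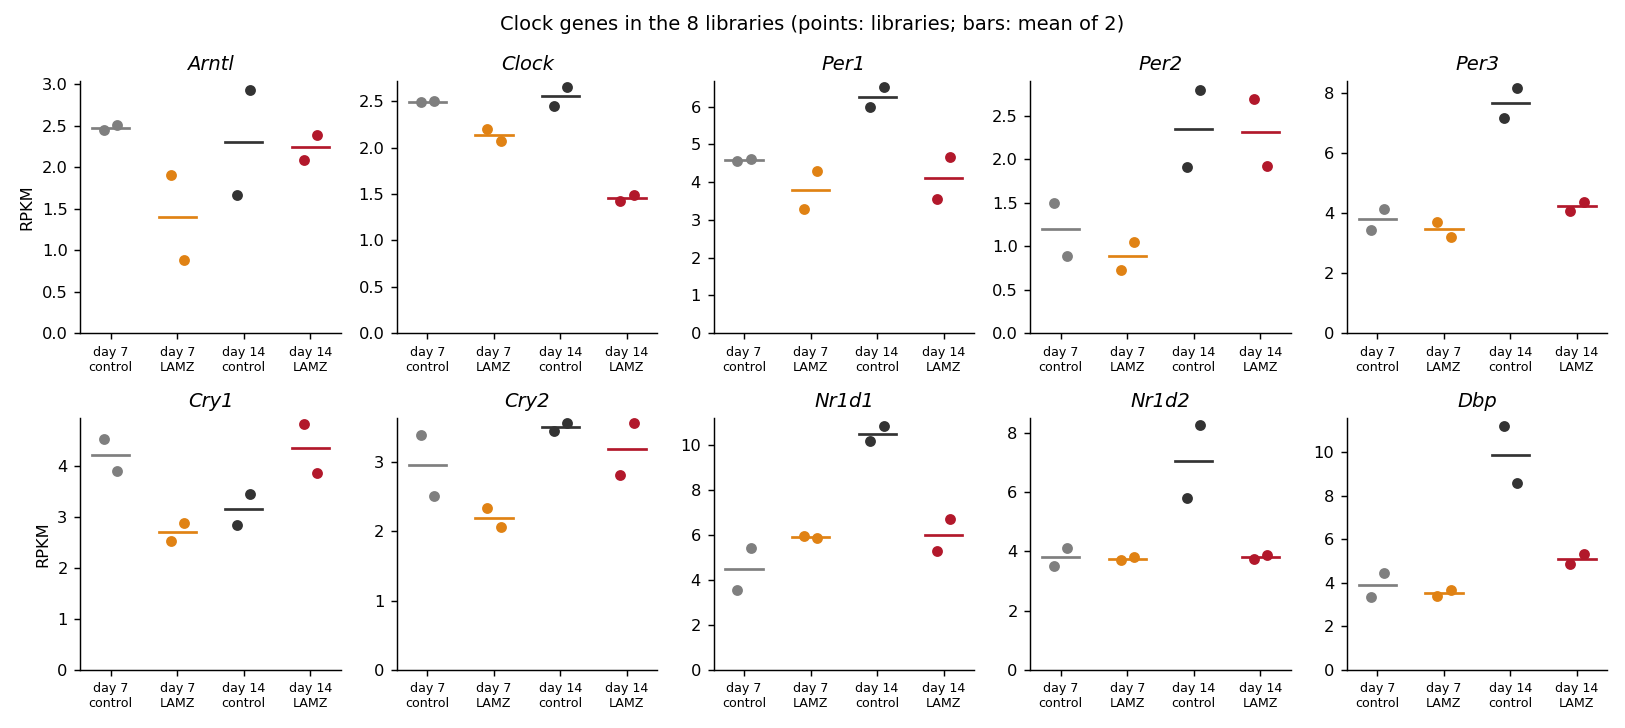
RPKM (y axis, from 0) of the 10 clock genes in the 4 groups (x axis), with a point for each library and a bar for the mean of both libraries of a group. Per3, Nr1d1, Nr1d2 and Dbp stand highest in the 2 control libraries of day 14, for Dbp at 8.57 and 11.2 against 3.37 to 5.34 in the other 6 libraries.

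At day 14, Clock, both Nr1d genes, Dbp and part of the Per genes were lower with LAMZ than in control. In total, limma called 6 of the 10 genes (Clock, Per1, Per3, Nr1d1, Nr1d2 and Dbp) lower with LAMZ than in control. Voom, a fit of limma to the reads recovered from the RPKM values, called the same 6 lower. Among all 12514 genes tested, 23.0% were called in this comparison by limma and 16.0% were called lower, against 30% and 21.4% by voom. The median difference of the 10 genes was -0.52 on the log2(RPKM + 1) scale, against -0.15 over all genes. Arntl, Per2, Cry1 and Cry2 did not pass the test. Genes were called at an adjusted p under 0.05 (limma on all 8 libraries, Benjamini-Hochberg over all genes tested), and differences are given as log2 with the standard error (SE). As the log2 scale includes a pseudocount of 1, it understates the change of low genes.

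Dbp, the output factor of the clock, had an RPKM of 11.2 and 8.57 in control and of 4.87 and 5.34 with LAMZ at day 14. Every control library was thus above both LAMZ libraries. The log2 difference was -0.83 (SE 0.16, adjusted p = 0.0091 by limma). Reads of Dbp and of Sphk2, a sphingosine kinase gene on the other strand that shares 539 exon bases with it, cannot be told apart there if strand was not used in counting, which is not stated. Sphk2 stayed between an RPKM of 5.21 and 7.18 in the 8 libraries.

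Per3, a period gene whose protein is less needed for the loop than those of its paralogs, had an RPKM of 7.17 and 8.15 in control and of 4.07 and 4.37 with LAMZ. These rest on 370 and 354 reads against 228 and 205, the most reads of any clock gene. The log2 difference was -0.73 (SE 0.13, adjusted p = 0.00695 by limma). Per1, which answers quickly to glucocorticoids and cAMP, was at 5.99 and 6.52 in control and at 3.56 and 4.66 with LAMZ. Its groups did not overlap either, but the difference lay close to the threshold (-0.51, SE 0.15, adjusted p = 0.0476 by limma). Per2, the other main period gene, was at 1.91 and 2.79 in control and at 2.69 and 1.92 with LAMZ, so that the groups overlapped. Its log2 difference was -0.016, with a 95% interval from -0.53 to 0.50, so a difference like that of Per1 lies inside the interval.

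Nr1d2, which encodes REV-ERBβ, had an RPKM of 5.81 and 8.27 in control and of 3.74 and 3.89 with LAMZ at day 14. Both LAMZ libraries lay below both controls, and the log2 difference was -0.72 (SE 0.16, adjusted p = 0.0155 by limma). Nr1d1, which encodes REV-ERBα, was at 10.2 and 10.9 in control and at 5.29 and 6.72 with LAMZ. Its log2 difference was -0.72 (SE 0.18, adjusted p = 0.0246 by limma), the same size as that of Nr1d2. Nr1d1 shares 263 exon bases with Thra, the thyroid hormone receptor gene on the other strand. Thra was 24.8 and 28.4 in control and 15.8 and 14.5 with LAMZ at day 14, a log2 difference of -0.77 (SE 0.14, adjusted p = 0.00737 by limma). Without strand, reads in the shared bases cannot be told apart, and their part in the value of Nr1d1 was not tested.

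In the activating arm, Clock was called lower with LAMZ at day 14 and Arntl was not, and the genes were not tested against each other. Clock, which encodes the partner of ARNTL, had an RPKM of 2.46 and 2.66 in control and of 1.42 and 1.49 with LAMZ. The LAMZ libraries were the lowest of all 8 for Clock, and the log2 difference was -0.53 (SE 0.13, adjusted p = 0.0207 by limma). Arntl was at 1.67 and 2.94 in control and at 2.09 and 2.39 with LAMZ, between the control libraries. The log2 difference of Arntl was -0.0018, with a 95% interval from -0.58 to 0.57, so a difference like that of Clock lies inside the interval.

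Neither cryptochrome was called lower with LAMZ at day 14. Cry1, the stronger repressor of the pair, was at 2.84 and 3.44 in control and at 4.83 and 3.86 with LAMZ, with both LAMZ libraries above. The log2 difference of 0.37 (SE 0.15, adjusted p = 0.117 by limma) did not pass the test. Cry2 was at 3.45 and 3.57 in control and at 2.82 and 3.57 with LAMZ, and the log2 difference was -0.11 with a 95% interval from -0.47 to 0.25.

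The number of day 14 calls depended on how libraries were scaled. With every library centred on its median, the calls of Per3 (-0.54), Nr1d2 (-0.53) and Dbp (-0.64) stood, those of Clock (-0.34), Per1 (-0.32) and Nr1d1 (-0.53) did not, and Cry1 was called higher. Over all genes, 16.0% were lower and 6.96% higher in the fit as deposited, 9.98% and 12.8% after centring, and 42.5% and 3.78% after rescaling to the same sum. Leaving out LAMZ replicate 1 of day 14 left 1 gene called (Per3), leaving out LAMZ replicate 2 left 3, and leaving out either control replicate of day 14 left 2.

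**Figure D2:**
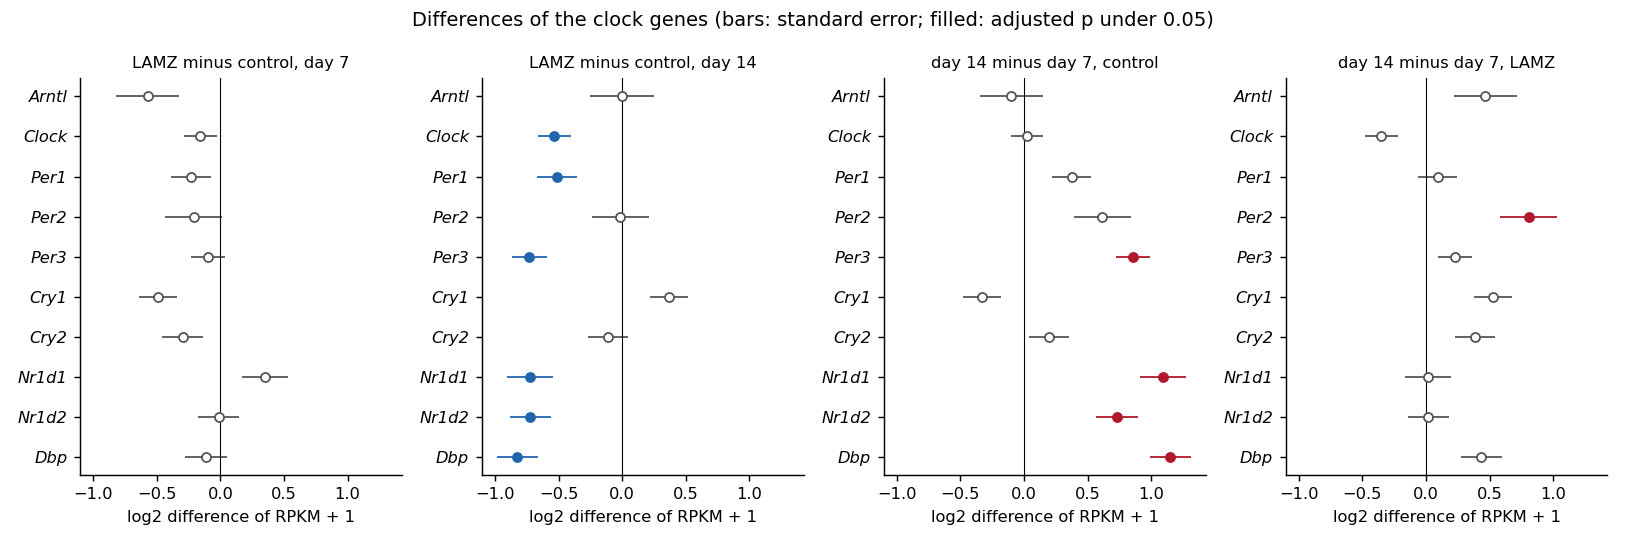
Log2 difference of RPKM + 1 (x axis) of the 10 clock genes (y axis) in 4 comparisons, with the SE as bars and filled points for an adjusted p under 0.05. At day 14 of LAMZ, 6 genes are filled to the left of 0, and with time in control 4 genes are filled to the right.

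At day 7, no clock gene was called between LAMZ and control by limma, and 1 of 10 (Cry1) had an unadjusted p under 0.05. With voom, 0 of 10 were called as well. In this comparison, 12.8% of all genes tested were called by limma and 16.5% by voom. The median of the clock genes was -0.18 against -0.08 over all genes.

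Cry1 at day 7 was at 4.53 and 3.89 in control and at 2.53 and 2.87 with LAMZ, which is the reverse order to day 14. The log2 difference was -0.49 (SE 0.15, adjusted p = 0.0701 by limma). Cry2 was at 3.40 and 2.51 in control and at 2.34 and 2.06 with LAMZ, a difference of -0.30 (SE 0.16, adjusted p = 0.267 by limma). Both cryptochromes were called lower only when libraries were rescaled to the same sum, where 26.2% of all genes were called lower.

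Nr1d1 at day 7 was at 3.53 and 5.44 in control and at 5.94 and 5.86 with LAMZ. The LAMZ libraries lay above both controls, with a log2 difference of 0.35 (SE 0.18, adjusted p = 0.253 by limma). Nr1d2 was at 3.50 and 4.10 in control and at 3.70 and 3.80 with LAMZ, inside the range of the controls.

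Dbp at day 7 was at 3.37 and 4.44 in control and at 3.37 and 3.65 with LAMZ. Per3 was at 3.42 and 4.15 in control and at 3.71 and 3.22 with LAMZ. The groups overlapped for both, and the 95% intervals of the difference ran from -0.49 to 0.26 for Dbp and from -0.41 to 0.21 for Per3. Per1 was at 4.57 and 4.62 in control and at 3.29 and 4.29 with LAMZ. Per2 was at 1.495 and 0.89 in control and at 0.72 and 1.05 with LAMZ. Per1 was thus lower in both LAMZ libraries and Per2 overlapped, and neither passed the test.

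Clock at day 7 was at 2.49 and 2.50 in control and at 2.20 and 2.07 with LAMZ, a log2 difference of -0.16 with a 95% interval from -0.45 to 0.14. Arntl was at 2.45 and 2.50 in control and at 1.91 and 0.88 with LAMZ. Its difference of -0.57 (SE 0.25, adjusted p = 0.182 by limma) rests largely on LAMZ replicate 2, which held 17 reads, and was -0.26 without it.

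The difference between both LAMZ effects was then tested itself. None of the 10 genes passed by limma, 5 of them (Per3, Cry1, Nr1d1, Nr1d2 and Dbp) had an unadjusted p under 0.05, and voom called 1 (Nr1d1). Over all genes, 0.623% were called in this test by limma and 3.28% by voom. The share of all genes with an unadjusted p under 0.05 was not computed. The difference of day 14 minus day 7 was -1.08 for Nr1d1 (SE 0.26, adjusted p = 0.109 by limma). It was 0.86 for Cry1 (SE 0.21, adjusted p = 0.118 by limma). The LAMZ libraries of these genes lay on opposite sides of the controls on the 2 days, in opposite directions.

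Averaged over both days, 5 of the 10 genes (Clock, Per1, Per3, Nr1d2 and Dbp) were lower with LAMZ, where 29.5% of all genes were called and 20.3% were called lower. The differences ranged from -0.35 in Clock to -0.47 in Dbp. None of these genes was called at day 7 alone. The differences of Nr1d2, Per3 and Dbp were -0.01, -0.10 and -0.11 at day 7, against -0.72, -0.73 and -0.83 at day 14. Those of Clock and Per1 were -0.16 and -0.23 at day 7, against -0.53 and -0.51 at day 14. After centring of the libraries on the median, 0 of the 10 genes were called on average, and leaving out any 1 of the 8 libraries left 1 to 3.

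Within the control cultures, 4 of the 10 genes (Per3, Nr1d1, Nr1d2 and Dbp) rose from day 7 to day 14, with limma and with voom. Of all genes tested, 4.86% were called in this comparison by limma and 2.46% were called higher, against 8.87% and 4.2% by voom. The median of the clock genes was 0.49 against -0.05 over all genes. The same control libraries enter the comparisons with LAMZ, so the rise with time in control and the lower level with LAMZ at day 14 share the control libraries of day 14.

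Dbp rose from 3.37 and 4.44 at day 7 to 11.2 and 8.57 at day 14 in control (log2 difference 1.15, SE 0.16, adjusted p = 0.0123 by limma). Nr1d1 rose from 3.53 and 5.44 to 10.2 and 10.9 (1.09, SE 0.18, adjusted p = 0.0193 by limma). Per3 rose from 3.42 and 4.15 to 7.17 and 8.15 (0.86, SE 0.13, adjusted p = 0.0157 by limma). Nr1d2 rose by a log2 difference of 0.73 (SE 0.16, adjusted p = 0.046 by limma). In each of them, both libraries of day 14 were above both of day 7. Arntl differed by -0.10, Clock by 0.02 and Cry1 by -0.33, and none of the 3 passed the test. Leaving out control replicate 1 of day 7 or of day 14 left 0 of the 4 calls, and leaving out control replicate 2 of day 14 left 1 (Dbp).

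Within the LAMZ cultures, 1 of the 10 genes (Per2) was called higher at day 14 than at day 7, where 14.4% of all genes were called and 5.1% were called higher. At an unadjusted p under 0.05, 4 of the 10 were higher (Per2, Cry1, Cry2 and Dbp) and 1 was lower (Clock), a level at which the share of all genes was not computed. Per2 was at 0.72 and 1.05 at day 7 and at 2.69 and 1.92 at day 14 (log2 difference 0.81, SE 0.22, adjusted p = 0.0493 by limma). Per2 in control moved from 1.495 and 0.89 to 1.91 and 2.79, a difference of 0.61 that did not pass the test. The call of Per2 with LAMZ was lost when any library other than those of day 7 control was left out. Cry1 with LAMZ was at 2.53 and 2.87 at day 7 and at 4.83 and 3.86 at day 14 (0.53, SE 0.15, adjusted p = 0.0529 by limma), and it was called higher with centring, quantile normalization and rescaling to the same sum. Of the 4 genes that rose in control, Dbp with LAMZ was at 3.37 and 3.65 at day 7 and at 4.87 and 5.34 at day 14 (0.44, SE 0.16, adjusted p = 0.111 by limma). The other 3, Nr1d1, Nr1d2 and Per3, differed by 0.01, 0.02 and 0.23. Arntl differed by 0.47 and Cry2 by 0.39, and neither passed the adjusted test.

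The markers of other cells moved with part of these values. The summed macrophage markers were higher in control at day 14 than at day 7, as were Dbp, Per3, Nr1d1 and Nr1d2, and 12 of the 14 markers rose with time in control. At day 7, the same markers were at 479.9 and 630.5 in control and at 9.27 and 7.65 with LAMZ. Between those groups, Dbp, Per3 and Nr1d2 overlapped, and Nr1d1 was higher in both LAMZ libraries but did not pass the test. The 5 proliferation markers were lower at day 14 (14.2 to 23.6, summed) than at day 7 (51.0 to 53.1), with and without LAMZ. The 5 chondrocyte markers were higher with LAMZ, at a summed RPKM of 433 to 456.5 against 157.3 to 230.1 at day 7 and of 311.8 to 328.8 against 90.5 to 101 at day 14, and 4 of 5 were called higher on each day, with 1 called lower at day 14. The 8 osteoblast markers summed to 10270 to 10830 with LAMZ against 7171 to 8830 at day 7 and to 16360 to 18120 against 10240 to 10720 at day 14, and 5 of 8 were called higher on each day. Adipocyte markers were highest in control at day 14, at a summed RPKM of 10.2 and 57.4. The part of these cells in the clock gene levels was not tested.

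The mean log2 value of Dbp, Per3, Nr1d1 and Nr1d2 minus that of Arntl was taken in each library. It was 0.37 and 0.65 in control at day 7 and 0.81 and 1.42 with LAMZ at day 7. It was 1.81 and 1.33 in control at day 14 and 0.82 and 0.82 with LAMZ at day 14. At day 7, the log2 difference between LAMZ and control was -0.57 for Arntl, against -0.11 for Dbp, -0.10 for Per3, 0.35 for Nr1d1 and -0.01 for Nr1d2. The value of 1.42 is that of LAMZ replicate 2, in which Arntl held 17 reads, and without it 0.81 is left against 0.37 and 0.65. The averaged genes are those called higher with time in control, and each was also called lower with LAMZ at day 14. The value thus restates these calls in part, and its order is a description without a test.

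**Figure D3:**
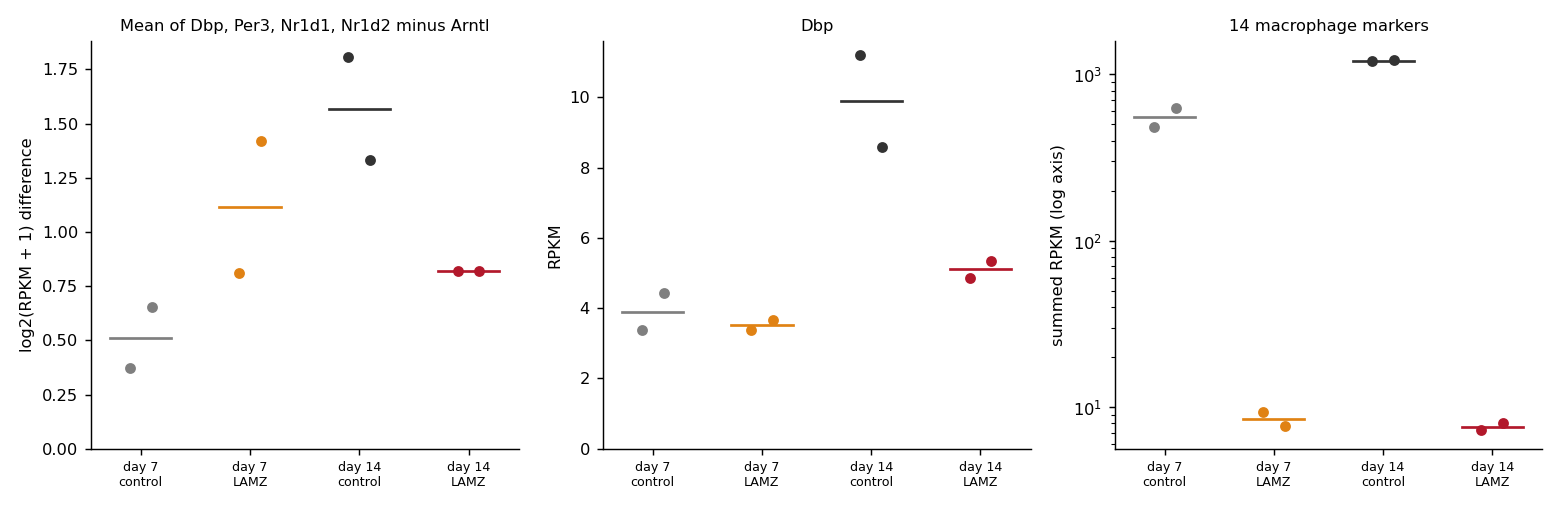
Mean log2(RPKM + 1) of Dbp, Per3, Nr1d1 and Nr1d2 minus that of Arntl (left), RPKM of Dbp (middle) and summed RPKM of 14 macrophage markers on a log axis (right) in the 4 groups, with points for libraries and bars for their mean. The macrophage markers separate control from LAMZ on both days, at 479.9 to 1223 against 7.25 to 9.27, while Dbp separates them at day 14 and overlaps at day 7.

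Compared per length, the 10 genes were of low to moderate level. In control at day 14, the mean RPKM was highest in Nr1d1 (10.5) and Dbp (9.89), whose libraries overlapped. Per3 (7.66), Nr1d2 (7.04) and Per1 (6.25) came next, and of these Nr1d2 overlapped with both others. Cry2 (3.51) and Cry1 (3.14) followed with no overlap between them, and Clock (2.56), Per2 (2.35) and Arntl (2.30) overlapped at the bottom of the order. With LAMZ at day 14, the order ran from Nr1d1 (6.01) and Dbp (5.10) to Arntl (2.24) and Clock (1.46).

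Over the 8 libraries, the log2 values of Dbp ran most closely with Per3 (Pearson r = 0.943) among the other clock genes. Nr1d1 ran with Per3 (r = 0.897) and Nr1d2 (r = 0.874). Arntl had its highest r among them with Cry2 (0.646). Its r was 0.38 with Per3, 0.32 with Nr1d2, 0.19 with Dbp and 0.056 with Nr1d1, none of them negative. Among 5604 genes with a mean RPKM of at least 5, those most like Dbp were Itm2b (0.961), Cstb (0.957) and Ctsd (0.954). Those most like Nr1d1 were Bsdc1 (0.966) and Slc41a1 (0.952). Per2 was most like Mir22hg (0.961), Msn (0.950) and Junb (0.945), the last an early response gene. Arntl was most like 2610005L07Rik (0.954), Wsb1 (0.946) and Anxa7 (0.914). The libraries share their group in pairs, so these values describe the 4 groups more than 8 separate points.

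Other genes of the clock pathway, 32 by a list drawn up by role, were measured beside the 10. In total, 25 of them were tested, and 6 were higher and 0 lower with LAMZ at day 7, while 3 were higher and 3 lower at day 14. Over all genes tested, 12.8% were called and 4.35% were called higher at day 7, and 23.0% were called at day 14. At an unadjusted p under 0.05, limma had 2 lower at day 7, and voom called 2 lower. Over all genes, voom called 10.9% lower at day 7. Their median difference was 0.01 at day 7 and -0.25 at day 14, against -0.08 and -0.15 over all genes.

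Among the activators, Npas2, which can take the place of Clock as partner of ARNTL, was higher with LAMZ. Npas2 was at 1.11 and 1.63 in control and at 4.36 and 3.77 with LAMZ at day 7 (log2 difference 1.10, SE 0.16, adjusted p = 0.00395 by limma). At day 14, Npas2 was at 1.83 and 2.17 in control and at 3.01 and 3.08 with LAMZ (0.43, adjusted p = 0.0821 by limma). At day 14, the LAMZ libraries thus lay below both controls for Clock and above both for Npas2, but Npas2 did not pass the test. Of 20 alternatives at day 14, Clock was called lower under 11 and Npas2 higher under 2. Rora, an activator of Arntl that competes with the REV-ERB receptors, differed by 0.09 at day 7 and by -0.38 at day 14 and did not pass.

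The repressors Bhlhe40 and Bhlhe41 (DEC1 and DEC2) compete with the dimer for E-boxes. Bhlhe40 was at 8.67 and 12.6 in control and at 35.5 and 31.9 with LAMZ at day 7 (1.60, SE 0.18, adjusted p = 0.00149 by limma). At day 14, Bhlhe40 was at 14.5 and 18.1 in control and at 30.8 and 29.3 with LAMZ (0.85, SE 0.18, adjusted p = 0.0127 by limma). Its difference was the highest among the clock pathway genes tested on each day. Bhlhe41 was higher with LAMZ at day 7 (0.59, SE 0.14, adjusted p = 0.0349 by limma) and differed by -0.32 at day 14, which did not pass. In control, Bhlhe41 rose with time (0.95, SE 0.14, adjusted p = 0.014 by limma), as did the 4 genes above. Ciart, another repressor of the dimer, held 8 to 45 reads and differed by 0.27 and 0.34, and neither passed.

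The D-box factors split. Nfil3, which represses through D-boxes against Dbp, was at 9.56 and 8.27 in control and at 13.1 and 14.4 with LAMZ at day 7 (0.57, SE 0.12, adjusted p = 0.0216 by limma). Nfil3 was higher by 0.58 at day 14 (SE 0.12, adjusted p = 0.0123 by limma). Tef, a paralog of Dbp that activates through D-boxes, was at 10.0 and 11.4 in control and at 4.34 and 5.62 with LAMZ at day 14 (-0.97, SE 0.15, adjusted p = 0.00306 by limma). At day 7, Tef was at 8.53 and 8.44 in control and at 5.22 and 6.34 with LAMZ (-0.49, adjusted p = 0.0705 by limma). Hlf, the other paralog, was at an RPKM of 0.18 to 0.64 and was not tested. At day 14, both activators tested, Dbp and Tef, were thus lower and their antagonist Nfil3 was higher.

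**Figure D4:**
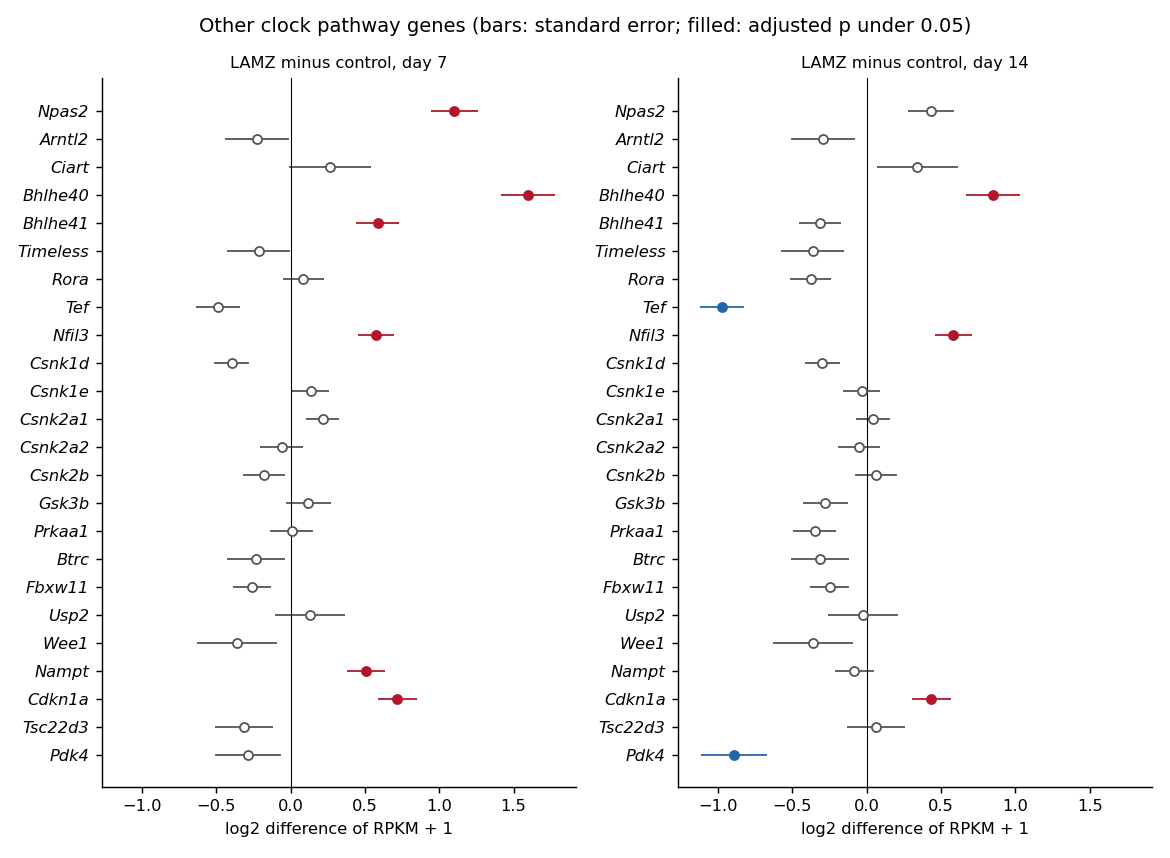
Log2 difference of RPKM + 1 between LAMZ and control (x axis) of 24 other clock pathway genes tested (y axis) at day 7 (left) and day 14 (right), with the SE as bars and filled points for an adjusted p under 0.05. Bhlhe40 lies farthest to the right on both days (1.60 and 0.85), and Tef farthest to the left at day 14 (-0.97).

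Of the kinases and ubiquitin ligase parts that set the lifetime of PER and CRY, 11 of 13 were tested and 0 were called at day 7. Of all genes, 12.8% were called there, so a count of 0 among so few genes says little. At an unadjusted p under 0.05, limma had 1 of the 11 lower at day 7, and voom called 1 lower, beside 10.9% of all genes called lower by voom. Of the clock outputs, 5 of 7 were tested. Cdkn1a, an inhibitor of the cell cycle, was higher on both days (0.72 and 0.43, adjusted p = 0.0116 and 0.0475 by limma). Nampt, the rate-limiting enzyme of NAD salvage, was higher at day 7 (0.51, adjusted p = 0.0396 by limma), and Pdk4, a kinase that restrains pyruvate oxidation, was lower at day 14 (-0.89, adjusted p = 0.0236 by limma).

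Inputs that can reset the clock were counted too. Of 10 genes of the glucocorticoid receptor and its targets, 1 was lower at day 7 (Angptl4, a secreted inhibitor of lipoprotein lipase, -0.92) and 1 at day 14 (Nr3c1, the receptor itself). Over all genes, limma called 8.49% lower at day 7 and 16.0% at day 14, so its counts on the single days are near the background. With voom, 3 of the 10 were lower at day 7, and 3 were lower and 1 higher at day 14. Voom called 10.9% of all genes lower at day 7, and 21.4% lower and 8.58% higher at day 14. Averaged over both days, limma called 3 of the 10 lower, beside 20.3% of all genes. At an unadjusted p under 0.05, 6 of the 10 were lower at day 7. The share of all genes at that level was not computed, so this count has no background to be read against. Nr3c1 was at 16.9 and 17.7 in control and at 9.77 and 10.2 with LAMZ at day 14 (-0.73, SE 0.11, adjusted p = 0.00315 by limma). Of the early response genes that serum, calcium and cAMP induce, 8 of 10 were tested, with 2 lower at day 7 and 1 lower and 1 higher at day 14, beside 12.8% and 23.0% of all genes called. Egr1, a zinc finger factor, was lower on both days (-0.83 and -0.91). Ier2 was lower at day 7 (-0.58) and higher at day 14 (0.60).

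Among these other genes, the calls of Npas2 and Bhlhe40 at day 7 and of Tef and Nr3c1 at day 14 stood under 20 of 20 alternatives. The calls of Bhlhe41, Nfil3, Nampt, Angptl4, Egr1, Ier2 and Cdkn1a at day 7 and of Bhlhe40, Nfil3, Cdkn1a, Pdk4, Egr1 and Ier2 at day 14 were lost when some library was left out, with adjusted p-values by limma up to 0.211 at day 7 and 0.19 at day 14. Bhlhe41 and Nampt at day 7 were called under 8 of 20 alternatives each, Egr1 at day 7 under 7 and Cdkn1a at day 14 under 6.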

How the data were processed

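RNA sequencing was done on 8 libraries of mouse osteoblast progenitors (control or LAMZ at 1 μmol/L, day 7 or day 14, 2 libraries each), and GEO's labels gave the groups. The authors used an Ion Proton, counted reads on genes in CLC Genomics Workbench (mm10 by the submitters' processing notes) and deposited the RPKM of each gene symbol, scaled within each library. In each file, 4 rows whose symbols had turned into dates and occurred more than once were dropped. Whether strand was used in counting is not given in the sources used here.

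The 12514 genes that reached an RPKM of 1 in 2 or more of the 8 libraries were tested on log2(RPKM + 1) in limma 3.58.1 (R 4.3.3, lmFit and eBayes with trend) as 4 groups in 1 fit, two-sided, with Benjamini-Hochberg adjustment over all genes and a threshold of 0.05. Intervals are 95% intervals of that fit. Counts at an unadjusted p under 0.05 have no share over all genes beside them and describe the listed genes only. An exact permutation test of 2 against 2 libraries cannot go below a p of 0.333. The labels do not say whether the replicates are separate cultures, so p-values measure the spread between these libraries, which may be technical.

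The mapped reads of a library were set to the number at which low values of single-exon genes (GENCODE M21 lengths) become whole reads, which 91.6% to 94.1% of values did within 0.02 reads. All 12514 genes tested then had whole reads, 9158 of them by the annotated exon length and the others, Arntl and Nr1d2 among them, by the shortest length that makes all 8 values whole, so that their reads may be a multiple of those given. These reads were fitted with voom, an alternative chosen after the data were seen. Other alternatives were pseudocounts, filters, scalings, replicate blocks, a day alone, no trend and leaving out a library. Motifs were searched by exact letters in RefSeq promoters.

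The genes and lists were chosen with earlier results of these data known. All 10 clock genes are named. From the other lists, genes past the threshold with LAMZ on either day are named, at most 4 per list, and Ciart, Npas2, Rora, Tef, Hlf, Nfil3, Bhlhe40 and Bhlhe41 always. For likeness, the 3 genes of highest Pearson r are named. Sphk2 and Thra are named for their overlap. Some genes that these rules name are not reported here. The scripts were tested on simulated data.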

Additional observations from a re-analysis of the deposited data

Results flagged for a closer look

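Among the genes named, the LAMZ effect differed between the days beyond the threshold in Ier2, an early response gene. Ier2 had an RPKM of 6.97 and 6.26 in control and of 3.70 and 4.54 with LAMZ at day 7, and of 8.69 and 8.28 in control and 13.6 and 13.2 with LAMZ at day 14. The effect at day 14 minus that at day 7 was 1.18 on the log2 scale (SE 0.18, adjusted p = 0.0369 by limma), and this difference was tested as an interaction. It was called under 6 of 19 alternatives and missed the threshold when any of the 8 libraries was left out (adjusted p up to 0.147 by limma). Each group had 2 libraries, so single libraries were not tested for lying apart.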

How the results depend on the processing

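For single genes, 87 results were recomputed, which gave 1677 alternative values, of which 1401 kept their direction and their side of the threshold, 218 lost the call, 20 gained it and 38 changed sign, none of them past the threshold after the change. The 6 counts of clock genes called stayed within 1.5 times their value under 76 alternatives, were lower under 31 and higher under 7. At day 14, Per3 was called lower under 20 of 20 alternatives (adjusted p 0.00018 to 0.0495), Dbp under 18, Nr1d2 under 17, Nr1d1 under 14, Clock under 11 and Per1 under 5. The cause of these changes was not tested.

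Without a filter on low values (more genes tested), 3 clock genes were called at day 14, 2 on average, 2 with time in control and 0 with time in LAMZ. Of all genes, 10.5%, 13.6%, 1.44% and 5% were called in these comparisons. The gene Rn7s1 alone took 18.1% to 33.7% of the sum of a library. With every library rescaled to the same sum, 2 clock genes were called at day 7, 9 on average and 2 with time in LAMZ. Of all genes, 28.7%, 57.6% and 12.2% were called in these comparisons. The median of all genes at day 14 moved from -0.15 to -0.43. With centring on the median or quantile normalization, 0 clock genes were called on average and 2 with time in LAMZ. Of all genes, centring called 28.4% on average and 14.6% with time in LAMZ, and quantile normalization 27.2% and 13.3%. The call of Per2 with time in LAMZ was lost (0 called) with a pseudocount of 5 and without the mean-variance trend. With voom, 2 were called with time in LAMZ and 1 (Nr1d1, adjusted p = 0.0299) in the difference between the days. Over all genes, voom called 22.6% with time in LAMZ and 3.28% in the difference.

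Same-numbered replicates deviated from their group means with a correlation of -0.034 to 0.078, so no shift common to them was seen. Whether they share a culture or a preparation is not known. With the replicate block across all groups, 6 clock genes were called at day 14, 5 on average, 4 with time in control and 0 with time in LAMZ. Of all genes, 21.6%, 27.4%, 3.45% and 12.4% were called in these comparisons. With the replicate block within each day, 4 clock genes were called at day 14 and 2 on average, beside 17.3% and 23.8% of all genes.

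With 1 library left out at a time, the lone sample of a group being assumed to vary like the other groups, the clock genes called numbered 0 to 0 at day 7, 1 to 5 at day 14, 1 to 3 on average, 0 to 0 for the difference, 0 to 3 with time in control and 0 to 1 with time in LAMZ. The lowest number on average (1) came without LAMZ replicate 1 of either day.

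Where a pair of values is given, they are with centring and with quantile normalization. Sign changes at day 14 were those of Arntl (0.19 with centring, 0.23 with quantile normalization, 0.012 with a pseudocount of 0.1 and 0.038 with voom), Per2 (0.17 and 0.21, and 0.016 with voom) and Cry2 (0.080 and 0.087). At day 7 they were those of Dbp (0.0014 with centring), Nr1d2 (0.10 and 0.097) and Per3 (0.015 and 0.0062), and on average those of Cry1 (0.088 and 0.093) and Per2 (0.040 and 0.079). When rescaled to the same sum, Rora at day 7 became -0.12 and Arntl with time in control 0.083.

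Leaving out 1 library changed the sign of some differences that were not called. At day 14, these ranged from -0.28 to 0.28 for Arntl, -0.21 to 0.18 for Per2, -0.24 to 0.018 for Cry2 and -0.083 to 0.77 for Ciart. At day 7, the ranges were -0.27 to 0.046 for Dbp, -0.10 to 0.078 for Nr1d2 and -0.21 to 0.011 for Per3. On average, Cry1 ranged from -0.13 to 0.0017, and Per2 from -0.0081 to 0.39 in the difference between the days. With time, the ranges were -0.38 to 0.18 for Arntl and -0.018 to 0.065 for Clock in control, and -0.13 to 0.16 for Nr1d1, -0.0044 to 0.042 for Nr1d2 and -0.063 to 0.25 for Per1 in LAMZ.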
